A study of Drosophila melanogaster with 2 samples.

Results

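Transfer RNA (tRNA) genes are the 295 nuclear genes whose FlyBase symbols begin with tRNA:, out of 18277 annotated genes on the nuclear chromosomes of Drosophila melanogaster, and 5 of the 295 are annotated as pseudogenes. Each gene was scored by the strongest CG2875 peak whose summit lay within 500 bp of the gene's start, and a peak that served several genes was counted once among peaks. A protein-coding transcription start site (TSS) lay within 1000 bp of the start of 80 of these genes, and the other 215 had none. The 2 sets were kept apart, because a summit near a tRNA gene of the first set is also near a protein-coding promoter.

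The peaks came from chromatin immunoprecipitation sequencing (ChIP-seq) of whole embryos of mixed sex, 0 to 14 h old. All embryos were from 1 transgenic line with CG2875 joined at its C-terminal end to green fluorescent protein (the CG2875-eGFP line), and the fusion protein was pulled down with an antibody against the tag. There was 1 group of 2 biological replicates, with no second genotype, stage or treatment. The authors' strict list, cut by rank reproducibility between replicates (the irreproducible discovery rate, IDR), held 4278 peaks, and the pooled list, called on both replicates, held 30000. Read depth is unknown, and the signal value that describes a peak is the authors' own and has a separate scale in each list.

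Transfer RNAs carry amino acids to the ribosome, and their genes are short, numerous and present in many identical copies. RNA polymerase III transcribes them from promoters that lie inside the gene: the factor TFIIIC binds the internal A box and B box and positions TFIIIB near the start, and TFIIIB recruits the polymerase. The gene body and the bases just upstream of it are therefore where this machinery sits.

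The genes below are shown because an IDR summit lay near each of them, and their B box, the anchor of the polymerase III machinery, can be seen within them. Capitals mark the B box core, spelled GTTCNANNC and searched on the gene's own strand. This core was found in 274 of the 295 genes (92.9%), at a median start of base 53, in genes with a median length of 73 bp. The genes are tRNA:Tyr-GTA-1-8 (chr3R:8669081-8669174, minus strand, its intron included), tRNA:Leu-TAA-2-1 (chr3R:24112964-24113047, plus strand), tRNA:Gln-TTG-2-1 (chrX:3427452-3427523, minus strand), tRNA:Val-CAC-2-5 (chr3R:19672277-19672349, minus strand) and tRNA:Asp-GTC-1-5 (chr2L:8541761-8541832, plus strand), all read 5′ to 3′ from Release 6 (dm6) of the genome.
tRNA:Tyr-GTA-1-8: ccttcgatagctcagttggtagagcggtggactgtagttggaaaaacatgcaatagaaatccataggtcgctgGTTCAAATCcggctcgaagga
tRNA:Leu-TAA-2-1: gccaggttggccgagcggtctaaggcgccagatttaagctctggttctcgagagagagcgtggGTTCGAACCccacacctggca
tRNA:Gln-TTG-2-1: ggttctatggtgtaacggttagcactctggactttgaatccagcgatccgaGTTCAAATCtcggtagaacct
tRNA:Val-CAC-2-5: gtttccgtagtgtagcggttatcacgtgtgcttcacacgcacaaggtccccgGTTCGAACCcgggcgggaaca
tRNA:Asp-GTC-1-5: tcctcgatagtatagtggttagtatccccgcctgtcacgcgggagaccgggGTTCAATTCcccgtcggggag

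The 61 bp of plus-strand dm6 sequence centred on the summits at 4 of the IDR peaks are shown as examples of summits outside the tRNA genes. Stronger peaks than some of these, also with summits outside a tRNA gene, are not shown. The windows are chr3R:8669367-8669427 beside tRNA:Tyr-GTA-1-8, chrX:6744222-6744282 beside tRNA:Phe-GAA-1-2, chr3R:24112736-24112796 beside tRNA:Leu-TAA-2-1 and chrX:3427698-3427758 beside tRNA:Gln-TTG-2-1. No base is capitalised, since none of the 4 windows contains a tRNA gene.
Summit beside tRNA:Tyr-GTA-1-8: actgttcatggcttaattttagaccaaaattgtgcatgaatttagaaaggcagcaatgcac
Summit beside tRNA:Phe-GAA-1-2: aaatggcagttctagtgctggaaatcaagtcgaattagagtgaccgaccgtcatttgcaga
Summit beside tRNA:Leu-TAA-2-1: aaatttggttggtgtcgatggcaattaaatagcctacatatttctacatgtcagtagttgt
Summit beside tRNA:Gln-TTG-2-1: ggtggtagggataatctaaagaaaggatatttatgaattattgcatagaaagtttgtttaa

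The share of tRNA genes with an IDR peak was near that of other non-coding genes. The 19 tRNA genes with an IDR summit were 6.44% of the 295 (exact binomial 95% interval 3.92% to 9.88%, counting error only). The same rule called 10.4% of all other genes and 5.43% of the 4014 other non-coding genes, and the latter share lies inside the interval of the tRNA genes. The 19 genes were served by 15 distinct peaks, since 3 of the peaks were shared by 7 genes.

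The neighbourhood of a protein-coding TSS went with a higher share, at tRNA genes and elsewhere. Of the 80 tRNA genes with such a neighbour, 9 had an IDR summit (11.2%, interval 5.28% to 20.3%), against 9.49% of the other non-coding genes with one. Of the 215 without, 10 had an IDR summit (4.65%, interval 2.25% to 8.39%), against 3.89% of the other non-coding genes without one. Both tRNA shares were thus near their background.

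The 15 peaks had pooled signal values from 130.2 to 770.4 with a median of 201.7, and 9 of them exceeded the median of the whole IDR list, 187.7. The 8 peaks beside a protein-coding TSS had a median of 228 (130.2 to 770.4), and the 7 without one had a median of 181.3 (151.4 to 405.1). The ranges of the 2 sets overlap. All 15 were found in both replicate lists, with values of 39.1 to 344.9 in replicate 1 and 68 to 424.8 in replicate 2, where the medians of the full lists were 25.25 and 30.69.

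**Figure D1:**
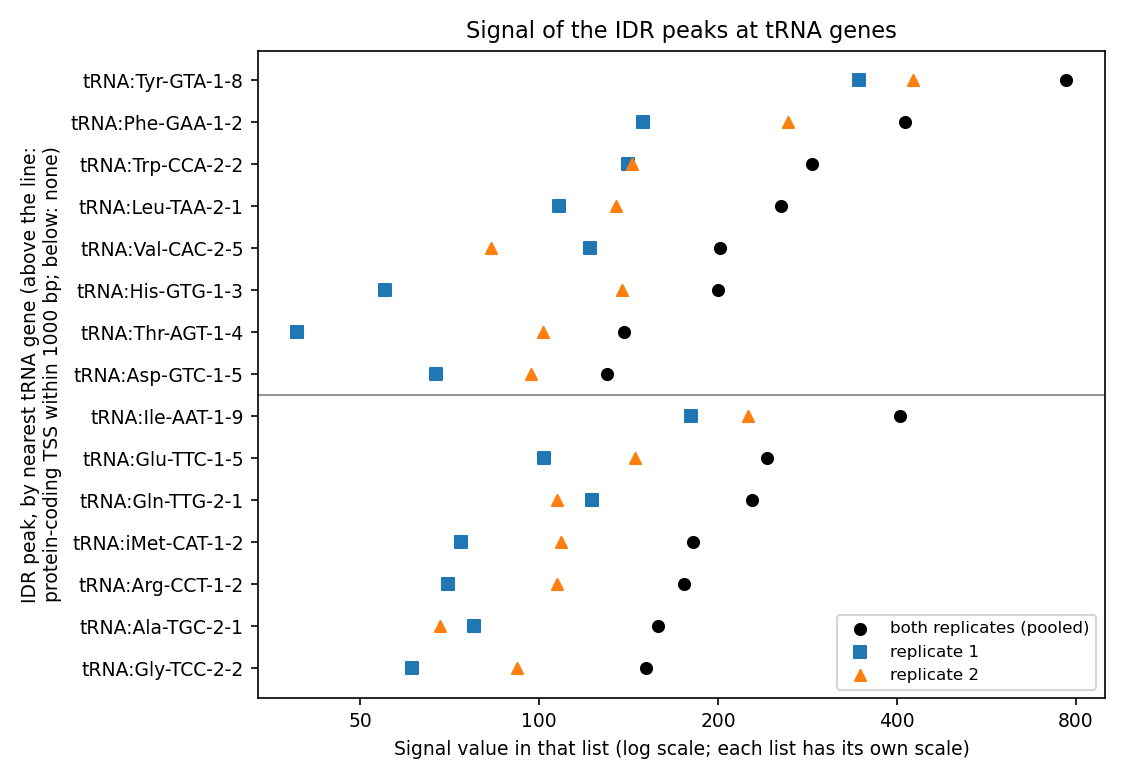
Signal values (horizontal, log scale) of the 15 IDR peaks at tRNA genes, by nearest tRNA gene, in the pooled list (circles), replicate 1 (squares) and replicate 2 (triangles). The peak beside tRNA:Tyr-GTA-1-8 is the highest in every list, at 770.4, 344.9 and 424.8, and each list has its own scale.

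Among the peaks with a protein-coding neighbour, that beside tRNA:Tyr-GTA-1-8 was the strongest, at 770.4 in the pooled list, 344.9 in replicate 1 and 424.8 in replicate 2. Its summit lay 223 bp upstream of the tRNA gene and 221 bp from a TSS of CG8036, so that the 2 distances were almost equal. The tRNA gene lies in an intron of p and CG8036. The peak spanned chr3R:8669223-8669534 and did not reach the tRNA gene. The next strongest, beside the intergenic gene tRNA:Phe-GAA-1-2 (peak at chrX:6744115-6744391), had values of 412.6, 149.2 and 261.9 in the same order of lists. Its summit lay 14 bp from the TSS of RpL17, which encodes a protein of the large ribosomal subunit, and 291 bp downstream of the tRNA start, past the 3′ end of the gene.

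The remaining peaks of this set showed the same variety of positions. At tRNA:Trp-CCA-2-2 (peak at chr2R:18639203-18639339) the values were 287.2, 141.2 and 143.3, and the summit lay 7 bp from the TSS of CG30122 and 294 bp upstream of the tRNA start. At tRNA:His-GTG-1-3 (chr2R:12335051-12335474) they were 199.7, 55.09 and 137.6, with the summit 53 bp from the TSS of CG8490 and 197 bp upstream of the tRNA start. Both of these summits were nearer to the protein-coding TSS than to the tRNA gene, though the peak interval at tRNA:His-GTG-1-3 overlapped that gene. At tRNA:Asp-GTC-1-5 (chr2L:8541956-8542114) the values were 130.2, 67.04 and 96.86, and the summit lay 86 bp from a TSS of Sema1a, which encodes a transmembrane semaphorin known for axon guidance, and 300 bp from the tRNA start. The same peak scored tRNA:Asp-GTC-1-4, whose sequence is identical.

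Of these 8 summits, 6 were nearer to the protein-coding TSS than to any tRNA start, although for tRNA:Tyr-GTA-1-8 and for tRNA:Val-CAC-2-5 (449 bp from a TSS of Naam, 450 bp from the tRNA start) the margin was too small to separate the 2 genes. The peak at tRNA:Val-CAC-2-5, a gene in an intron of Naam (peak at chr3R:19671687-19672110), had values of 201.7, 121.9 and 82.88. The other 2 summits were nearer to the tRNA gene. At the intergenic gene tRNA:Leu-TAA-2-1 (peak at chr3R:24112681-24112845) the values were 255.2, 108.1 and 134.8. The summit lay 198 bp upstream of the tRNA start and 377 bp from the nearest protein-coding TSS, that of CG13605. At tRNA:Thr-AGT-1-4, inside an intron of CG31279 (chr3R:16431683-16432106), they were 138.8, 39.1 and 101.6, and the summit lay 45 bp upstream of the tRNA start and 302 bp from a TSS of CG31279.

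The 7 IDR peaks at tRNA genes without a protein-coding neighbour were 6 peaks on 2R and 1 on X. The strongest (chr2R:19714931-19715221) was near tRNA:Ile-AAT-1-9, an isoleucine tRNA gene, with 405.1 in the pooled list, 179.7 in replicate 1 and 224.4 in replicate 2. Its summit was 489 bp upstream of the tRNA start, close to the limit of the window, and 1000 bp from the nearest protein-coding TSS, that of CG8517. At tRNA:Glu-TTC-1-5 (chr2R:19727083-19727188) the values were 241.6, 101.8 and 145.1, with the summit 380 bp downstream of the tRNA start and 1 bp from the start of a small nucleolar RNA gene. At tRNA:Gln-TTG-2-1, in an intron of CG12535 (chrX:3427654-3427783), they were 228.1, 122.9 and 107.2, with the summit 205 bp upstream. None of these 3 peaks overlapped the tRNA gene it was assigned to.

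The initiator methionine genes tRNA:iMet-CAT-1-1 and tRNA:iMet-CAT-1-2, whose product starts protein synthesis, shared a peak with tRNA:Glu-TTC-1-4, at 181.3 in the pooled list, 73.7 in replicate 1 and 108.9 in replicate 2. The peak spanned chr2R:19725732-19726155, and its summit lay 39 bp inside tRNA:iMet-CAT-1-2 and was the only one of the 15 within a tRNA gene. The nearest protein-coding TSS was 11868 bp away. At the pair tRNA:Arg-CCT-1-2 and tRNA:Arg-CCT-1-3 (chr2R:20000356-20000779) the values were 175.5, 70.09 and 107.1, and the summit lay 200 bp upstream of the former and 251 bp upstream of the latter, between the 2 genes. At tRNA:Ala-TGC-2-1 (chr2R:17392391-17392814) they were 158.6, 77.6 and 68, with the summit 388 bp downstream of the start. At tRNA:Gly-TCC-2-2 (chr2R:21848477-21848900) they were 151.4, 61.02 and 91.71, with the summit 211 bp upstream.

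Most of the 15 summits lay beside a tRNA gene rather than in it. They were 39 to 489 bp from the tRNA start among genes without a protein-coding neighbour (median 211 bp) and 45 to 450 bp among genes with one (median 257 bp). Of the 15 summits, 9 were upstream of the nearest tRNA start and 6 downstream of it, including the 1 inside tRNA:iMet-CAT-1-2, and 5 of the peak intervals overlapped a tRNA gene at all. Summits in the replicate lists lay close to those of the pooled peaks, with a median shift of 4 bp in replicate 1 (largest 55 bp) and 6 bp in replicate 2 (largest 146 bp).

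**Figure D2:**
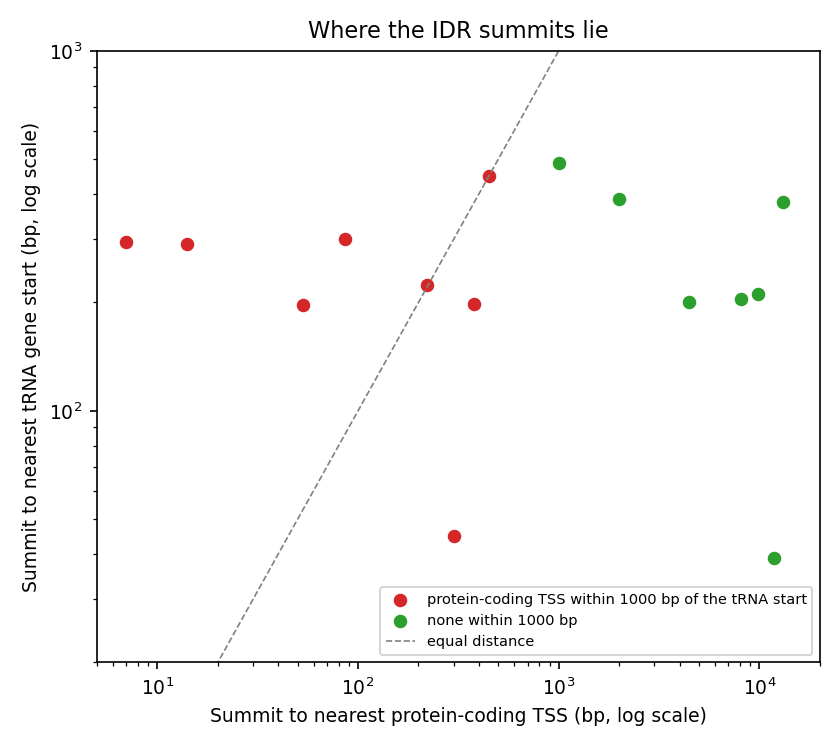
Distance from each of the 15 IDR summits to the nearest protein-coding TSS (horizontal, bp, log scale) and to the nearest tRNA gene start (vertical, bp, log scale). Points left of the dashed line, 6 in number and all red, are nearer to the protein-coding TSS, 2 of them almost on the line, and the 7 green points lie 1000 bp or more from one.

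The motifs searched were unevenly spread over the peaks. In windows of 301 bp centred on the summit and read on both strands, the B box core GTTCNANNC was found at 4 of the 8 peaks with a protein-coding neighbour and at 1 of the 7 without, against 9.82% of all IDR peaks. At tRNA:Thr-AGT-1-4 the match began 98 bp from the summit and was the gene's own B box. The other matches were at tRNA:Trp-CCA-2-2, tRNA:Leu-TAA-2-1, tRNA:His-GTG-1-3 and tRNA:Glu-TTC-1-5. There the window did not reach the tRNA gene, so the match lay outside it. The DNA replication-related element (DRE), TATCGATA, found in many housekeeping promoters, was present at 2 of the 8, those beside CG30122 and CG8490, and at 0 of the 7, against 2.76% of all IDR peaks. The repeat GAGAG was present at 2 of 8 and 3 of 7, against 37.6%, and the E box CACGTG at none of the 15, against 3.23%. Of the 4278 IDR peaks, 1394 had a summit within 500 bp of a gene start. The whole list is therefore an unlike background for peaks chosen near a protein-coding TSS.

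At the edge of the window, the last genes inside were tRNA:Asp-GTC-1-4 at 438 bp, tRNA:Val-CAC-2-5 at 450 bp and tRNA:Ile-AAT-1-9 at 489 bp. The first genes outside were tRNA:Gly-GCC-1-9 at 533 bp, from the same peak of 287.2 that scored tRNA:Trp-CCA-2-2, then tRNA:Leu-CAA-2-2 at 597 bp from a peak of 241.3 and tRNA:Val-TAC-1-1 at 679 bp from a peak of 203.3. Signal values on the 2 sides of the limit overlap.

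The replicates gave a similar picture at matched list lengths. Among the strongest 4278 peaks of replicate 1, a summit lay at 18 tRNA genes (6.1%, against 5.33% of other non-coding genes), and among those of replicate 2 at 24 (8.14%, against 5.28%). The 2 replicates shared 17 genes, and all 17 also had an IDR peak. The 6 genes called by replicate 2 without an IDR peak were tRNA:Arg-ACG-1-1, tRNA:Lys-CTT-1-1, tRNA:Arg-TCT-1-1, tRNA:Met-CAT-1-1, tRNA:Gln-TTG-1-2 and tRNA:Gln-TTG-1-3, and replicate 1 had no such gene. At the pair of tRNA:Gln-TTG genes the shared peak had 117 in the pooled list, 40.83 in replicate 1 and 89.32 in replicate 2. At tRNA:Arg-TCT-1-1 and tRNA:Met-CAT-1-1 it had 98.59, 25.99 and 75.94. These 6 genes were named after their values were seen.

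Peaks of the pooled list, in contrast to those of the IDR list, were frequent at tRNA genes. The pooled list is relaxed, includes the IDR peaks and contains background by design. It had a summit at 152 of the 295 genes (51.5%, interval 45.7% to 57.4%), against 38.5% of all other genes and 25.7% of other non-coding genes. With a protein-coding neighbour the count was 50 of 80 (62.5%, interval 51% to 73.1%), against 38.8% of other non-coding genes with one. Without one it was 102 of 215 (47.4%, interval 40.6% to 54.3%), against 20.7%. The intervals treat genes as independent, but neighbouring genes share peaks, and 109 distinct peaks served the 152 genes.

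The density of summits, which counts each peak once, was also higher. The windows of the 215 genes without a protein-coding neighbour, merged where they overlapped, covered 165.3 kb and held 93 pooled summits, or 56.2 per 100 kb. The corresponding windows of other non-coding genes held 27.7 per 100 kb, and the chromosome arms as a whole held 22.4. The density varied with clustering: the windows of the 80 single genes of this set, with no other tRNA gene within 1000 bp, held 37 summits in 80.08 kb, or 46.2 per 100 kb. For IDR peaks the order was different, with 4.23 per 100 kb at these tRNA genes, 4.72 at the other non-coding genes and 3.2 over all arms.

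The excess of peaks in the relaxed lists differed between the replicates. The relaxed list of replicate 1 had a summit at 115 tRNA genes (39%, against 26% of other non-coding genes) and that of replicate 2 at 157 (53.2%, against 25.3%). Both replicates scored 92 genes, replicate 2 alone 65, replicate 1 alone 23 and neither 115. Of the 135 pooled peaks in the windows, a replicate 2 peak overlapped 126 and a replicate 1 peak 92, while 4 had neither. The part of depth, of the shared control and of the library in this difference was not tested.

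The weak peaks had values typical of the pooled list. The 133 genes with a pooled peak outside the IDR list had values of 31 to 117.9 with a median of 52, close to the median of 49.5 over the whole pooled list. The IDR peaks are the strongest 4278 peaks of the pooled list, so every peak outside them lies below the weakest IDR peak, at 119.5, by selection. Over the peaks that scored the genes, the median was 54.11 at tRNA genes and 60.47 at other non-coding genes. A larger share of tRNA genes than of other non-coding genes had a peak, while the median signal of the peaks was lower.

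**Figure D3:**
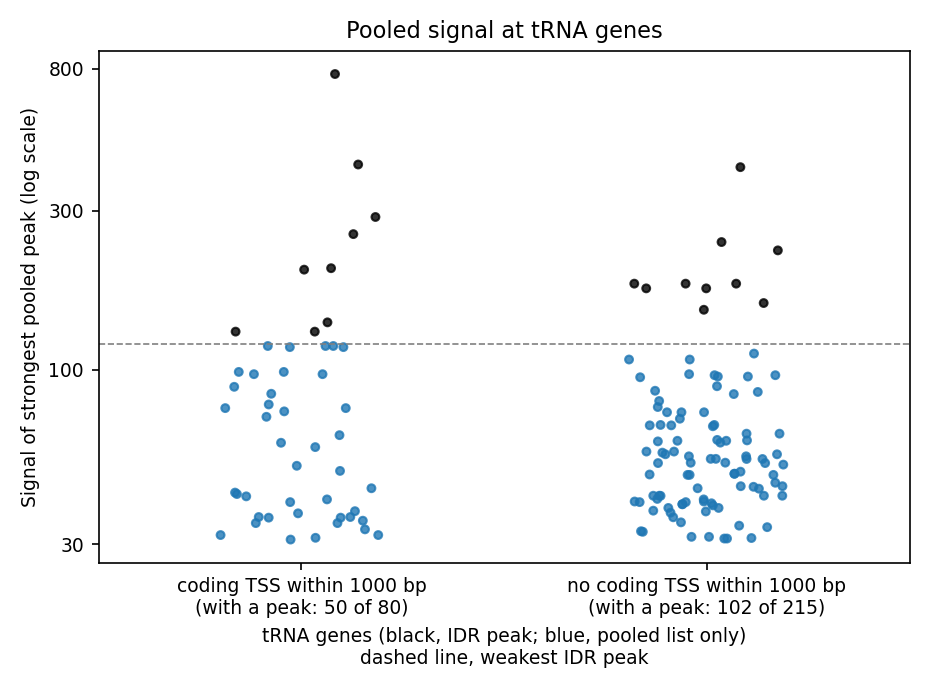
Signal of the strongest pooled peak (vertical, log scale) for the 50 tRNA genes with a protein-coding TSS within 1000 bp and the 102 without that had such a peak, black for genes with an IDR peak and blue for the rest, with the dashed line at the weakest IDR peak, 119.5. Points are spread sideways at random within a column, and genes that share a peak have equal values. The blue points all lie at or below 117.9.

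In the pooled list, IDR peaks included, the bin with the most summits was that over the body of the tRNA genes. The 100 bp from the start of the gene downstream held a pooled summit for 31 of the 215 genes without a protein-coding neighbour (14.4%), against 2.86% of other non-coding genes without one, and against a mean of 5.891% in the 6 bins of 100 bp farther out in the same windows (200 bp or more from the start). The peaks behind these 31, among them the IDR peak in tRNA:iMet-CAT-1-2, had values of 31.11 to 181.3 with a median of 52.55. For genes with a protein-coding neighbour the count was 12 of 80 (15%), against 5.15% of other non-coding genes with one and a mean of 6.458% in the outer bins. A second high bin, of 100 bp, began 300 bp upstream and held 22 of 215 genes (10.2%), and the bin just past the body held 6 (2.79%).

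In the replicate lists this bin was the highest for both sets in replicate 2 but did not stand out in replicate 1. In replicate 1 it held 16 of the 215 genes (7.44%, against 2.96% of other non-coding genes and 4.961% in the outer bins) and 7 of the 80 (8.75%, against 5.24%). The bin that began 300 bp upstream held 17 of the 215 (7.91%), more than the gene body, and the bin that began 200 bp downstream held the same 8.75% of the 80. In replicate 2 it held 23 of 215 (10.7%, against 2.75% and 5.426%) and 13 of 80 (16.2%, against 4.61%). Among the 80 single genes, with no other tRNA gene within 1000 bp and no protein-coding neighbour, it held 9 in the pooled list (11.2%, outer bins 4.792%), 6 in replicate 2 (7.5%, outer bins 4.792%) and 3 in replicate 1 (3.75%, outer bins 4.375%). For single genes the replicate 1 value was therefore no higher in the gene body than around it. In replicate 2 the bins that began 300 bp upstream and 300 bp downstream held the same 7.5% of single genes as the gene body. In the IDR list the bin held 1 of 215 genes, tRNA:iMet-CAT-1-2, and 0 of 80.

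**Figure D4:**
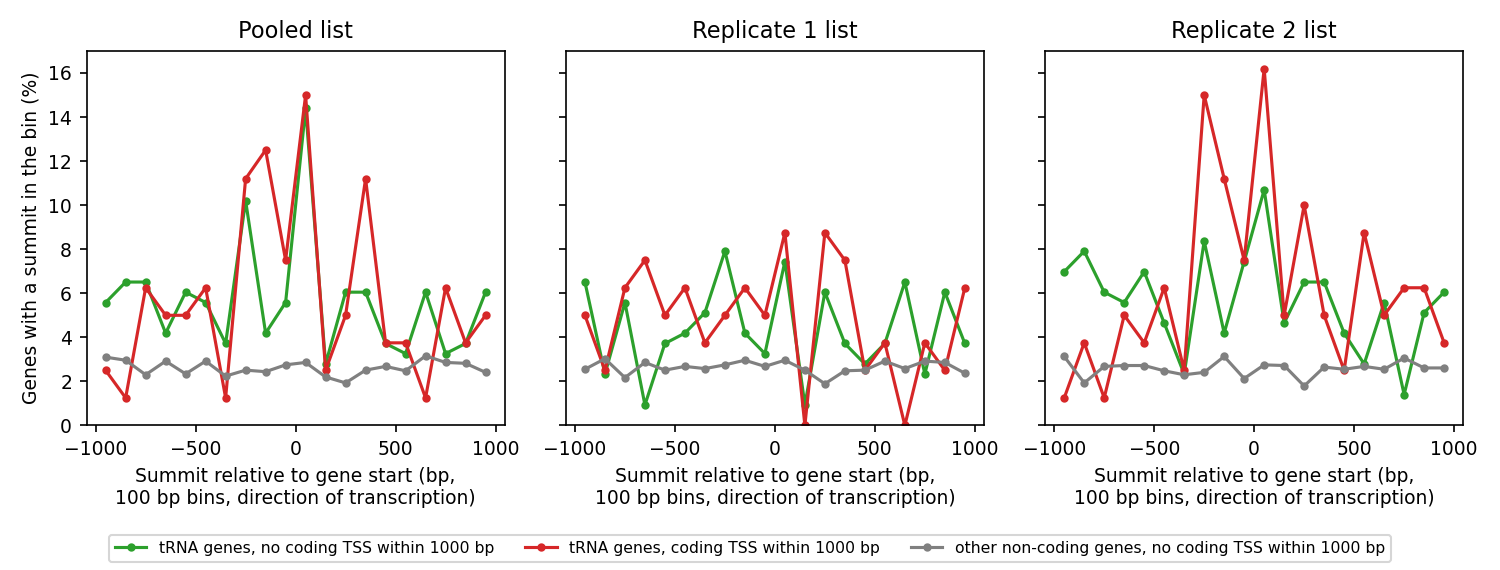
Share of genes (vertical, percent) with a summit in each bin of 100 bp around the gene start (horizontal, in the direction of transcription) in the pooled, replicate 1 and replicate 2 lists, for tRNA genes without (green) and with (red) a protein-coding TSS within 1000 bp and for other non-coding genes without one (grey). The bin from 0 to 99 bp of the green line is at 14.4%, 7.44% and 10.7% in the 3 lists, and of the grey line at 2.86%, 2.96% and 2.75%.

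The strongest peaks outside the IDR list at genes without a protein-coding neighbour show how these summits lay. The first, near tRNA:Leu-CAG-1-1, had 111.9 in the pooled list, 49.46 in replicate 1 and 63.4 in replicate 2, with the summit 316 bp downstream of the start. At tRNA:Ala-CGC-1-3 and tRNA:Ala-CGC-1-2, in an intron of gol, the values were 107.4, 37.79 and 62.93, with the summit 62 bp upstream of the former. The next 3 had summits inside a gene: tRNA:Pro-TGG-1-2 (97.07, 40.23 and 59.71 in the same order), tRNA:Leu-CAG-1-2 (96.38, 37.5 and 63.99) and tRNA:Lys-CTT-1-1 (95.49, 29.43 and 70.86). The peak in tRNA:Pro-TGG-1-2 enters here through tRNA:Ala-AGC-2-3, since a TSS of CG14326 lay 861 bp from tRNA:Pro-TGG-1-2 itself. The gene tRNA:Lys-CTT-1-1 lies in an intron of EcR, which encodes the ecdysone receptor.

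The other 5 of these 10 peaks had pooled values of 84.62 to 95.02. At tRNA:Ala-AGC-1-1 the pooled value was 95.02, and the summit lay 486 bp downstream. At tRNA:Lys-TTT-1-1, in an intron of Btk, it was 89.32 and the summit lay 346 bp downstream. At tRNA:Gly-GCC-1-4 the value was 86.57 with the summit 402 bp upstream, and at tRNA:Val-CAC-2-6 it was 84.62 with the summit 163 bp upstream. At tRNA:Glu-CTC-2-3 the summit lay 50 bp inside the gene, at 85.86, with 66.98 in replicate 2 and no overlapping peak in replicate 1. In all, 4 of the 10 summits were inside a tRNA gene.

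Identical copies of one tRNA gene had very different scores. For 11 sequences with more than 1 copy, at least 1 copy had an IDR peak: of their 69 genes, 15 had one, 46 had a pooled peak and 23 had neither. These sequences were picked for an IDR peak, so a high top value in each follows from the choice. Over all 238 genes with further copies, 15 had an IDR peak and 125 had a pooled peak (52.5%). The 8 identical phenylalanine genes show the range. At tRNA:Phe-GAA-1-2, beside RpL17, the pooled value was 412.6, and the 5 other copies with a peak had 60.51 (tRNA:Phe-GAA-1-6), 52.68 (tRNA:Phe-GAA-1-3), 44.8 (tRNA:Phe-GAA-1-4 and tRNA:Phe-GAA-1-5, which share a peak) and 32.71 (tRNA:Phe-GAA-1-7). The copies tRNA:Phe-GAA-1-1 and tRNA:Phe-GAA-1-8 had no peak.

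Other multicopy genes also varied from copy to copy. Of the 12 aspartate copies, 9 had a pooled peak, with values from 31 to 130.2, and of the 9 isoleucine copies 7 had one, from 31.22 to 405.1. Of the 5 histidine copies only tRNA:His-GTG-1-3, beside CG8490, had one, at 199.7. Of the 5 identical initiator methionine genes, 2 had the peak of 181.3, 2 shared a peak of 54.06 and 1 had none. The families of copies were described after their values were seen.

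By amino acid, IDR peaks were spread over 15 of 22 classes. No gene for Asn, Cys, Lys, Met, Pro, SeC (selenocysteine) or Ser had one, although the pooled list scored 7 of 19 Lys and 9 of 17 Pro genes. The pooled list scored 9 of 12 Ile genes (75%), 6 of 8 Phe genes (75%), 10 of 14 Asp genes (71.4%), 14 of 21 Glu genes (66.7%) and 4 of 6 iMet genes. It scored 1 of 6 His genes, 3 of 12 Gln genes (25%) and 2 of 6 Met genes. With so few genes and so many shared peaks per class, these shares do not order the amino acids.

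**Figure D5:**
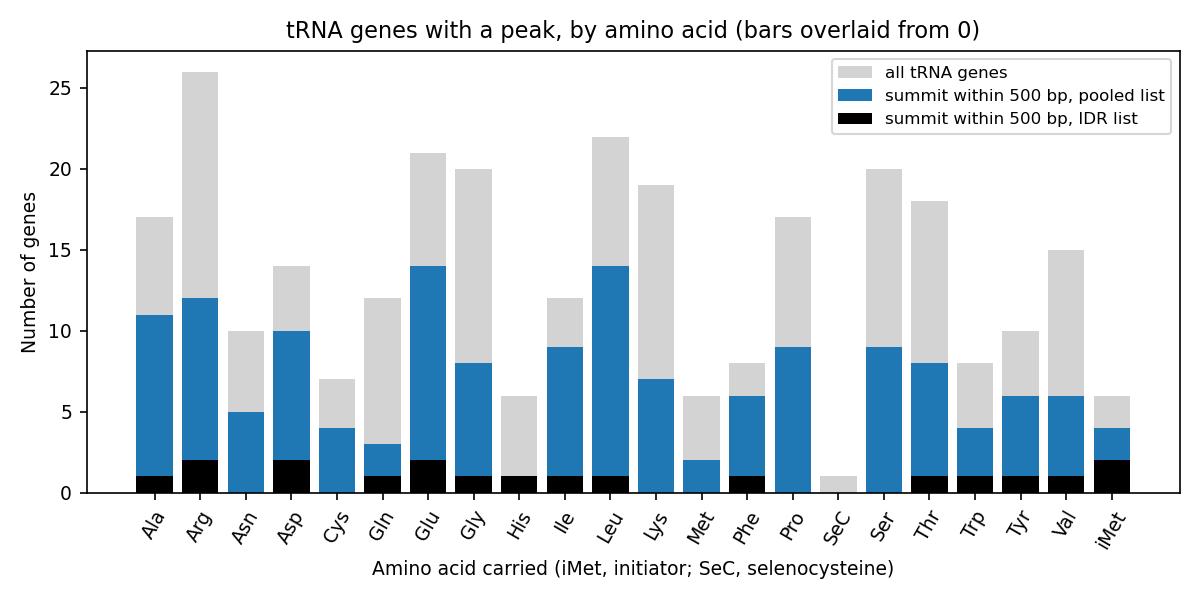
Number of tRNA genes by amino acid (grey), with the number that had a summit within 500 bp in the pooled list (blue) and in the IDR list (black), overlaid from 0. No class has more than 2 genes in black, while blue reaches 14 of 22 Leu genes and 14 of 21 Glu genes.

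By chromosome arm, 2R held 100 of the 295 genes and 11 of the 19 with an IDR peak (8 of the 15 peaks). The arm 3R held 4 of the 19 among 79 genes, 2L held 2 among 41, X held 2 among 26, and 3L held 0 among 49. No share of other genes on each arm was set beside these IDR counts, so they do not order the arms. In the pooled list the shares were 60.8% on 3R, 57% on 2R, 51% on 3L, 43.9% on 2L and 15.4% on X. Without a protein-coding neighbour, 1 of 23 genes on X had a pooled peak (4.35%), whereas other non-coding genes of this kind had one in 13.9% of cases on X and in 17.7% to 26.2% on 2L, 2R, 3L and 3R. Of the 26 genes on X, 7 form 1 cluster.

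Clustered genes had pooled peaks more often than single ones. Genes whose starts lay within 1000 bp of each other in a chain formed 70 clusters of 188 genes, and 107 genes stood alone. A pooled peak was present at 45 of the 107 single genes (42.1%), at 74 of 136 in clusters of 2 to 3 genes (54.4%) and at 33 of 52 in larger clusters (63.5%). A cluster covers more sequence, and 1 peak can score several of its genes, but the part of either in this difference was not tested. Counted by locus, 45 of 107 single genes (42.1%) and 46 of 70 clusters (65.7%) had a pooled peak. Over all 177 loci 91 had one (51.4%), and so did 57 of the 125 loci with no protein-coding neighbour at any member (45.6%).

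The largest clusters, of 7 genes each, differed. On X, the arginine and serine genes from tRNA:Arg-TCG-2-1 to tRNA:Arg-TCG-3-4 (chrX:14014814-14017284) had no pooled or IDR peak at any gene. On 2R, the isoleucine and leucine genes from tRNA:Ile-AAT-1-3 to tRNA:Leu-CAA-1-1 (chr2R:13430282-13432794) had a pooled peak at 4 genes, from 2 peaks of at most 40.14. In the X cluster a median of 64.33% of the 32-base words in the windows were unique in the genome, against 90% in the 2R cluster. Reads that map to several places may be lost at such genes, and the part of this in the missing peaks was not tested.

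The median share of unique words was similar among scored and unscored genes. Low shares were more frequent at unscored genes in the set without a protein-coding neighbour. The windows of 500 bp on each side had a median of 92.37% unique 32-base words, with 26.29% as the lowest value. Without a protein-coding neighbour, the median was 93.2% at the 10 genes with an IDR peak, 91.13% at the 92 with a pooled peak only and 93.92% at the 113 with neither. Under 80% were 0 of the 10, 3 of the 92 and 10 of the 113. Genes whose sequence occurs once in the genome had a pooled peak in 27 of 57 cases (47.4%) and genes with further copies in 125 of 238 (52.5%). The position within or outside a protein-coding gene made little difference, with 84 of 158 intergenic genes (53.2%) and 64 of 130 intronic genes (49.2%) scored, and the 16 genes with an intron of their own had a pooled peak in 10 cases.

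The wider polymerase III system was read from any TSS of each gene, by a rule that called 13.9% of protein-coding genes and 5.53% of other non-coding genes in the IDR list. Of 110 other genes picked by symbol as polymerase III genes, 5S pseudogenes among them, 2 had an IDR peak. At snRNA:7SKa, whose RNA is known to restrain the elongation factor P-TEFb, the value was 173 (83.43 in replicate 1, 107.6 in replicate 2). At RNaseMRP:RNA, the RNA of an enzyme of ribosomal RNA processing, it was 135.8 (54.26 and 83.42). Their summits lay 184 bp and 303 bp from the TSS. Of the 110, 100 are 5S ribosomal RNA genes and pseudogenes, which are a tandem repeat and had no pooled peak.

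Most of 15 genes for the transcription machinery of tRNA synthesis had no IDR peak, among them Polr3A, Polr3B and Polr3C, which encode polymerase III subunits. The same held for most protein-coding genes, of which this rule called 13.9%, so this majority is no scarcity particular to the machinery. None of 10 genes for tRNA processing had an IDR peak. Of the machinery genes with a peak, 3 are described here. Bdp1, a subunit of TFIIIB, had a summit 104 bp from its TSS at 530.6 (269 in replicate 1, 257.4 in replicate 2), though the TSS of CG6565 was nearer, at 25 bp. Polr3E, a polymerase III subunit, had one at 214 bp and 396.5 (208.4 and 196.9). Brf, the TFIIIB subunit that recruits the polymerase, had one at 153 bp and 364.8 (163.6 and 203.6), with the TSS of sds22 nearer, at 104 bp. The peaks of these 3 genes were present in both replicate lists, and 2 of the 3 summits had a closer neighbour.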

How the data were processed

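ChIP-seq peak lists were analysed from 2 biological replicates of CG2875-eGFP embryos, with chromatin sheared by sonication to 200 to 800 bp per the labels. Per the deposited file records, the authors called a relaxed list on each replicate and on both together, against a control alignment, and derived the IDR list from them. For the aligner, the caller, their versions and the cut on IDR, the sources used here give nothing. The deposited signal value is the caller's enrichment measure on a scale of each list's own, and the deposited −log10 q value was not used for ranking. Lists on dm3 were not used here.

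Peaks, summits, tRNA genes and TSSs were compared on dm6 with the Ensembl release 115 annotation, after transposable elements were left out. Coordinates are 1-based. The members and lists were chosen with earlier results of these data known. Named genes are all with an IDR summit in the window, the 10 strongest pooled peaks outside the IDR list at genes without a protein-coding neighbour, the 3 genes on each side of the window's edge, the largest clusters, and related genes with an IDR peak. One such related gene is not reported here. With 1 group no test was made: values are described beside those of other genes, and intervals are exact binomial. Depth is unknown. The counting was tested on simulated data. The software was numpy 2.4.6, scipy 1.17.1, pandas 2.3.3 and, for figures, matplotlib 3.10.9, under Python 3.11.15. Alternatives were other windows, each replicate alone, the stronger 50% of IDR peaks, interval overlap, other limits for the protein-coding neighbour, and leaving out pseudogenes.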

Additional observations from a re-analysis of the deposited data

How the results depend on the processing

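The window, the share of IDR peaks used and the overlap rule all moved the counts. With a window of 250 bp, 8 tRNA genes and 8 distinct peaks were called in the IDR list (4 genes with a protein-coding neighbour, 4 without), 96 genes in the pooled list, the median IDR signal was 190.5, and 2 summits were nearer to a protein-coding TSS. With 1000 bp, 29 genes were called in the IDR list, 17 of them without a protein-coding neighbour. With the stronger 50% of the IDR peaks, 9 genes and 9 peaks were left, 3 genes without a neighbour, and the median signal was 255.2. When the peak interval had to overlap the gene, 6 genes and 5 peaks were left in the IDR list (2 genes with a neighbour, 4 without), and 92 genes and 86 peaks in the pooled list.

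With each replicate alone, the strongest peaks in place of the IDR list called 18 to 24 genes and 14 to 17 peaks, 8 to 13 genes with a neighbour and 10 to 11 without, with median signals of 105 to 107.2 on the replicates' own scales. The median position was -178.5 to -83, the latter from replicate 2, and 4 to 5 summits were nearer to a protein-coding TSS. The relaxed replicate lists called 115 to 157 genes and 101 to 133 peaks. The causes were not tested. Leaving out pseudogenes, and other limits for the neighbour, moved no count by more than 1.5 times. No paired analysis was possible because the series has 1 group. With no untagged or mock immunoprecipitation analysed here, signal that does not depend on the tagged protein cannot be told apart from binding, and the relaxed lists contain background.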
